A study of Mus musculus with 15 samples.

Results

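The Kruppel-like factors (Klf genes) encode a family of zinc-finger transcription factors. The members Klf2, Klf3, Klf4, Klf5, Klf6, Klf7, Klf9, Klf10, Klf13 and Klf15 were taken by gene symbol from a table of 14091 features. All 10 were listed and all 10 passed the filter on low counts.

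As background, every Kruppel-like factor binds GC-rich DNA and CACCC sequences through zinc fingers at its carboxyl end, and the members differ mainly in the amino-terminal part that recruits coactivators or corepressors. KLF2, KLF4, KLF5, KLF6 and KLF7 are mostly known as activators, KLF3 recruits the corepressor CtBP, and KLF9, KLF10 and KLF13 can recruit the corepressor Sin3. In the heart and vessel wall the family is known for opposing roles, with KLF2 and KLF4 holding endothelium and smooth muscle quiescent, KLF5 acting in growing smooth muscle and fibroblasts, KLF13 acting with GATA4 in the developing heart, and KLF15 restraining hypertrophic growth.

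The 15 RNA-seq libraries, 5 in each of 3 groups, came from embryonic fibroblasts (MEF) of ICR mice. In the MΔGΔT group the fibroblasts had been transduced with retrovirus carrying a set of factors that the labels call MΔGΔT, in the MGT group with the set called MGT, and the third group is labelled MEF. M, G and T conventionally stand for the heart transcription factors MEF2C, GATA4 and TBX5, whose joint expression turns some fibroblasts into induced cardiomyocyte-like cells (iCM). The labels do not define Δ, and the title of the study speaks of engineered effector domains of MEF2C and GATA4. Transduced cells were collected after 1 week. The labels name no empty virus for MEF and do not say if replicates came from separate cultures, so p-values measure the spread between these libraries, which may be technical. Retroviral transduction usually reaches some of the cells in a culture, and a bulk library averages over all of them.

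Libraries held 8.21 to 11.1 mega-counts. Levels below are CPM (counts per mega-count) of a library total adjusted for composition by TMM, and differences are log2 fold changes ± SE from edgeR's quasi-likelihood test, called at an adjusted p under 0.05 (Benjamini-Hochberg) over 13328 tested features. Mef2c averaged 629 ± 23.7 CPM in MΔGΔT and 578 ± 40.1 in MGT, against 59.6 ± 1.1 in MEF (SD, n = 5 each). Gata4 averaged 192 ± 3.11 CPM in MΔGΔT and 151 ± 12.6 in MGT, against 2.47 ± 0.536 in MEF, and Tbx5 175 ± 4.48 in MΔGΔT and 123 ± 7.87 in MGT, against 4.37 ± 0.615 in MEF. These counts cannot tell viral from endogenous transcripts. All 14 tested heart muscle markers were higher in either transduced group than in MEF. Fibroblast markers were detected in every group, with a summed level of 35900 to 38400 CPM in MΔGΔT and 41700 to 42600 in MGT, against 69100 to 76600 in MEF. Of the 17 tested, 3 were higher and 14 lower in MΔGΔT against MEF, 1 higher and 16 lower in MGT against MEF, and 4 higher and 10 lower in MΔGΔT against MGT. Among those that fell, Dcn averaged 60.8 ± 7.24 CPM in MΔGΔT and 266 ± 30.4 in MGT, against 1030 ± 69.9 in MEF. Among the few that rose, Vim, the intermediate filament gene of mesenchymal cells, averaged 7870 ± 331 CPM in MΔGΔT and 4480 ± 144 in MGT, against 2440 ± 45.7 in MEF.

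Klf2 and Klf4 transcripts fell and Klf5 transcripts rose in both transduced groups, and each of these differences was larger with MΔGΔT than with MGT. In MΔGΔT against MEF, 4 members were higher and 6 lower, where 72.3% of all tested features were called, 36.2% higher and 36.1% lower. In MGT against MEF, 3 members were higher, 5 lower and 2 not called, where 61.2% of tested features were called, 30.9% higher and 30.3% lower. In MΔGΔT against MGT, 4 members were higher and 6 lower, where 58.2% of tested features were called, 30.4% higher and 27.8% lower. With library totals and no composition factors, 2 members were higher in MΔGΔT against MEF, 2 were higher in MΔGΔT against MGT, and 3 were lower in MGT against MEF. With this scaling the same calls were made for 29.8%, 18.3% and 24.6% of all tested features, in that order. The median absolute log2 fold change of the members was 0.69 in MΔGΔT against MEF, 0.23 in MGT against MEF and 0.45 in MΔGΔT against MGT. Over all tested features the same medians were 0.38, 0.26 and 0.24. A difference of at least 2-fold was measured for Klf2, Klf4 and Klf5 in MΔGΔT against MEF, and for Klf2 and Klf5 in MGT against MEF. In MΔGΔT against MGT it was measured for Klf2. The share of all features with a difference of this size was not computed. The 3 comparisons share groups, so they are not independent of each other.

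**Figure D1:**
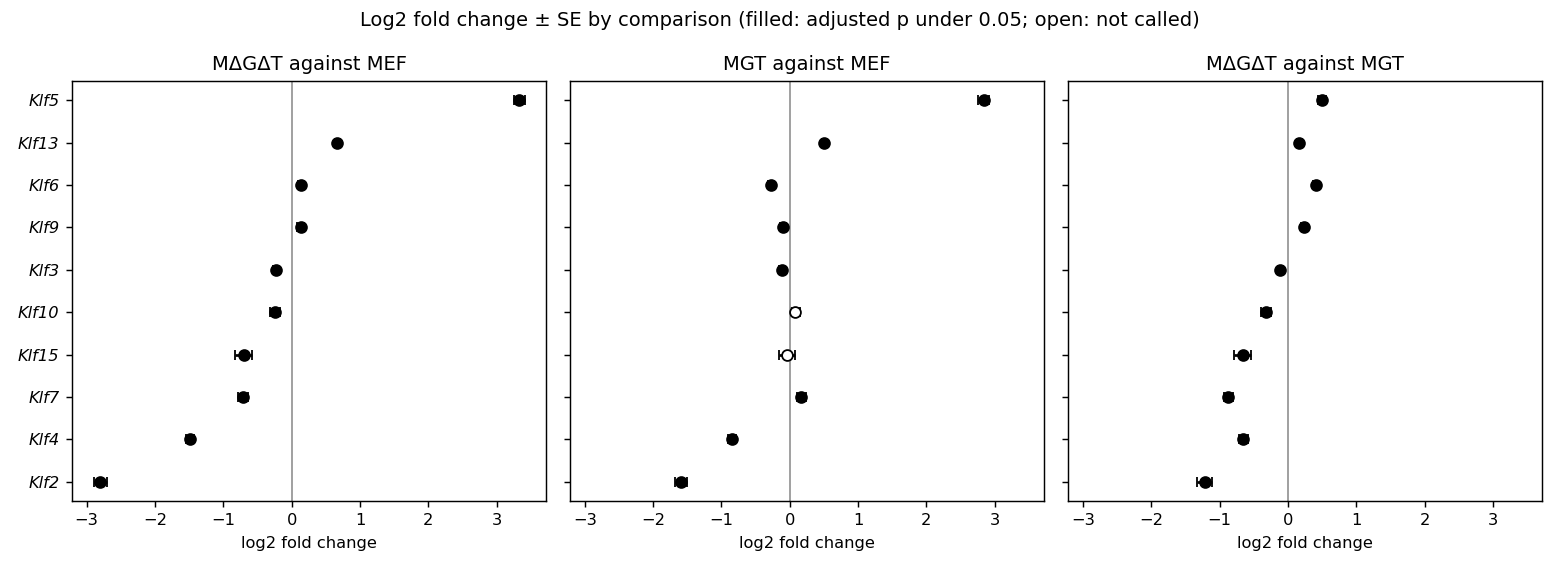
Log2 fold change ± SE (x axis) of the 10 Klf genes in MΔGΔT against MEF, MGT against MEF and MΔGΔT against MGT; filled points have an adjusted p under 0.05. Klf5 lies at 3.33, 2.84 and 0.50 and Klf2 at -2.80, -1.59 and -1.22, while the small positive values of Klf6 and Klf9 in the left panel turn negative with library totals implied by the deposited RPKM.

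Klf2, a flow-responsive gene of endothelium that also keeps T cells quiescent, had the largest decrease among the 10 members. Its gene spans chr8:72319033-72321656 on the plus strand (mm10). Klf2 had 22.9, 17.9, 16.1, 17.3 and 16.1 CPM in the 5 MΔGΔT libraries, 51.5, 44.6, 38.8, 37.8 and 36.5 in the 5 MGT libraries, and 126, 134, 113, 124 and 132 in the 5 MEF libraries. Every MΔGΔT library lay below every MGT library, and every MGT library below every MEF library. In MΔGΔT against MEF its log2 fold change was -2.80 ± 0.0999 (adjusted p = 2.4e-14), a 6.97-fold lower mean. In MGT against MEF it was -1.59 ± 0.0859 (adjusted p = 1.9e-11), and in MΔGΔT against MGT -1.22 ± 0.111 (adjusted p = 3.7e-08). In bulk RNA, fewer cells of a type that expresses a gene and less of its RNA per cell cannot be told apart, for this gene and those that follow.

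The start of Klf2 is shown because, in endothelial cells, MEF2 factors are known to act on this promoter. The window runs from 250 bases before to 50 bases after the start that RefSeq gives (GRCm38.p6, the assembly of mm10; chr8:72318812-72319111, plus strand), and capitals mark the match to the MEF2 consensus.
Klf2 promoter: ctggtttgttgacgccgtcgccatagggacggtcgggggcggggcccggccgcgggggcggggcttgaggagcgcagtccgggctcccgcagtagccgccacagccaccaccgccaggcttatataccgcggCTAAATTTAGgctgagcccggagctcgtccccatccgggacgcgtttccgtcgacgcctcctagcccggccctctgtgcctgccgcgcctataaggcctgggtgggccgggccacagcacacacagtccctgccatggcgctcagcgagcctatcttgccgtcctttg
The match begins 118 bases before the start. The consensus was found in 0.557% of 32851 RefSeq promoter windows of this length, searched on both strands, and in 1 of the 8 members with a window.

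Klf4, one of the factors that reprogram fibroblasts to pluripotency and a repressor of smooth muscle genes, spans chr4:55527143-55532466 on the minus strand. Klf4 had 98, 82.6, 91.4, 86.3 and 84.5 CPM in MΔGΔT libraries, 153, 137, 135, 137 and 131 in MGT libraries, and 269, 249, 211, 247 and 266 in MEF libraries. The 3 groups did not overlap, and MΔGΔT was again the lowest. The log2 fold change was -1.49 ± 0.0595 in MΔGΔT against MEF (adjusted p = 6.6e-17), -0.84 ± 0.0568 in MGT against MEF (adjusted p = 3.4e-12) and -0.65 ± 0.0603 in MΔGΔT against MGT (adjusted p = 2e-09). The Klf4 window (chr4:55532426-55532725, minus strand, written 5′ to 3′ on that strand) is set beside that of Klf2 as the other member that fell most. Capitals mark the GC box GGGCGG on either strand, which occurs 4 times in it.
Klf4 promoter: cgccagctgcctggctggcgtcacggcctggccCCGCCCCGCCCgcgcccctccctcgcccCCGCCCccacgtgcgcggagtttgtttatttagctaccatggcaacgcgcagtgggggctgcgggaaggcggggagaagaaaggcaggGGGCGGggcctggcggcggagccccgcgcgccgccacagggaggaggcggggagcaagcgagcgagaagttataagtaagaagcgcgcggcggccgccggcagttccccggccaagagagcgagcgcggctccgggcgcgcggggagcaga
It holds no match to the MEF2 consensus and no CACCC on either strand.

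Markers of other cell types that use KLF2 and KLF4 moved with these genes in part. All 17 tested macrophage and blood markers were lower in MΔGΔT and in MGT than in MEF. Their summed level was 257 to 375 CPM in MΔGΔT and 203 to 361 in MGT, against 2550 to 3360 in MEF, and none of the 17 was at 0 in a whole group. Between MΔGΔT and MGT, 1 of the 17 was higher, 2 were lower and 14 were not called (0 higher and 7 lower with RPKM-implied totals, 0 and 4 with library totals), while Klf2 and Klf4 were lower in every MΔGΔT library than in every MGT library. Of 8 tested endothelial markers, 2 were higher and 4 lower in each transduced group against MEF. The 9 of 16 markers that the count table holds summed to 541 to 581 CPM in MΔGΔT and 208 to 228 in MGT, against 201 to 218 in MEF, of which Flt1 (a VEGF receptor) made up 486 in MΔGΔT and 149 in MGT, against 117 in MEF. Vwf, one of the markers that fell, averaged 1.97 ± 0.18 CPM in MΔGΔT and 2.36 ± 0.768 in MGT, against 24.1 ± 3.04 in MEF. The endothelial cadherin gene Cdh5 had 0.0222 CPM in MΔGΔT and 0.159 in MGT, against 1.45 in MEF. These Cdh5 levels rest on 1 count over the MΔGΔT libraries, 9 over the MGT libraries and 66 over the MEF libraries. Pecam1 was not analysed here. The part of these cells in the fall of Klf2 and Klf4 was not tested.

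Klf5, which is active in growing smooth muscle, in epithelia and in fibroblasts of the stressed heart, had the largest increase. It spans chr14:99298691-99315036 on the plus strand. Klf5 had 92.5, 88.8, 90.9, 84.4 and 84 CPM in MΔGΔT libraries, 69.9, 63.7, 61.6, 53.8 and 63.4 in MGT libraries, and 10.5, 7.38, 6.94, 9.3 and 9.6 in MEF libraries. No MEF library came near a transduced one, and all MΔGΔT libraries lay above all MGT libraries. Klf5 was 10.1-fold higher on average in MΔGΔT than in MEF (log2 fold change 3.33 ± 0.0809, adjusted p = 1.9e-28). This log2 value was 2.84 ± 0.0834 in MGT against MEF (adjusted p = 1.2e-25) and 0.50 ± 0.0577 in MΔGΔT against MGT (adjusted p = 3.6e-09). The 8 of 13 epithelial and mesothelial markers in the count table, of cells that also use Klf5, summed to 122 to 149 CPM in MΔGΔT and 41.3 to 50.5 in MGT, against 27.1 to 32.6 in MEF. Of the 7 tested, 4 were higher and 2 lower in MΔGΔT against MEF (1 lower with the replicate block), 4 higher and 3 lower in MGT against MEF, and 3 higher and 2 lower in MΔGΔT against MGT (3 and 3 with RPKM-implied totals). The mesothelial gene Msln alone had 87.1 CPM in MΔGΔT and 18.3 in MGT, against 4.77 in MEF. Upk3b, on the same list, went the other way, with log2 fold changes of -3.03 in MΔGΔT against MEF and -2.90 in MGT against MEF. Wt1 was higher in MGT than in MEF, but lower in MΔGΔT than in MGT (log2 fold change -1.53). Cdh1, the cadherin of epithelia, was below 1 CPM in all groups at 0.0642 in MΔGΔT and 0.0516 in MGT, against 0.775 in MEF. Their part in the Klf5 result was not tested.

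**Figure D2:**
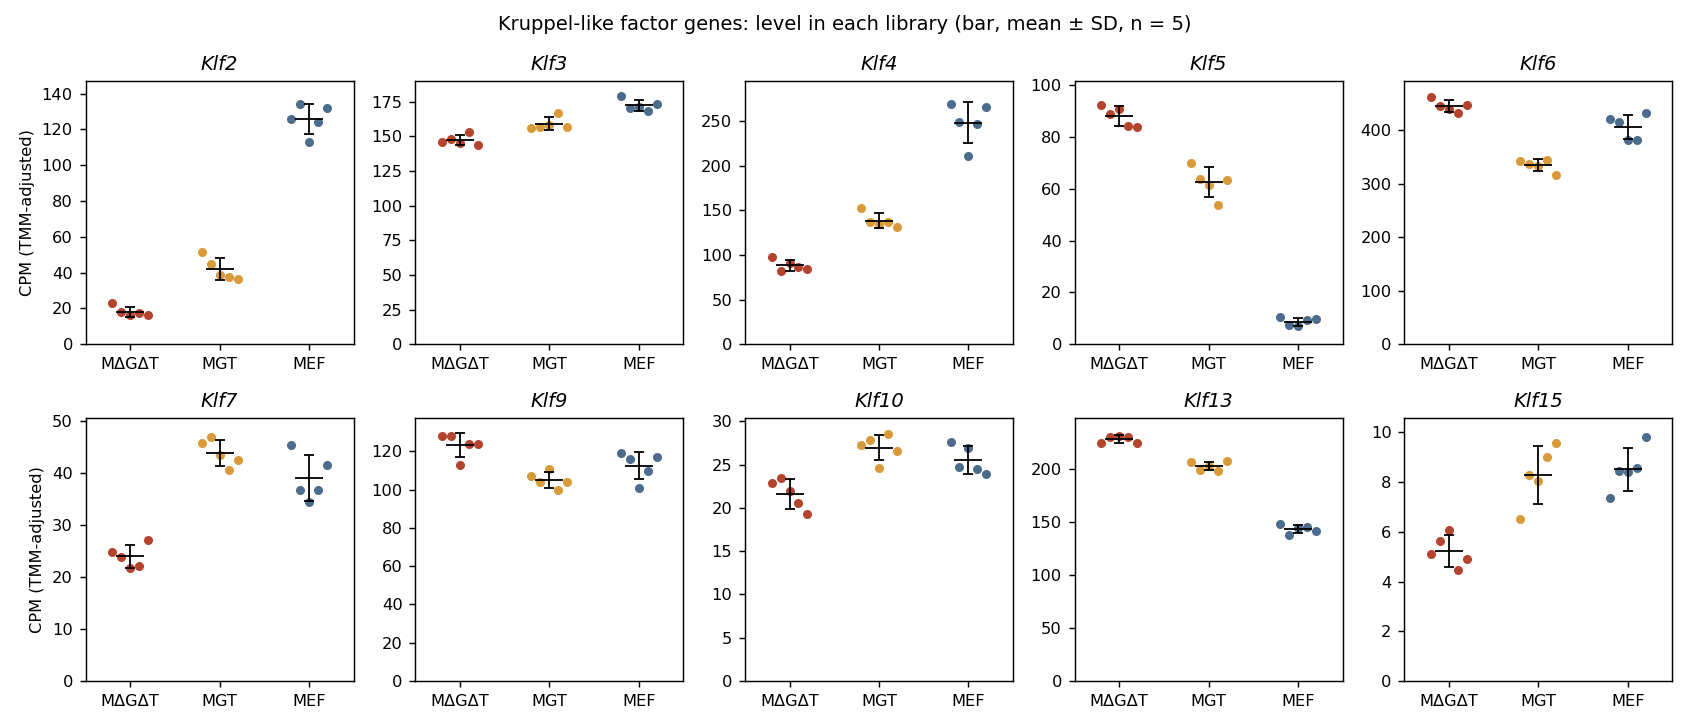
TMM-adjusted CPM (y axis, from 0) of each of the 10 Klf genes in every library, by group (MΔGΔT, MGT, MEF); points are libraries, and bars are the mean ± SD of 5. The 3 groups of Klf2, Klf4 and Klf5 do not overlap, and the MGT and MEF libraries of Klf7, Klf9, Klf10 and Klf15 do.

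Klf6, an early gene of tissue injury that activates TGF-beta genes, was lower in MGT than in both other groups, while its direction in MΔGΔT against MEF turned with the scaling. It spans chr13:5861482-5870394 on the plus strand. Klf6 had 461, 445, 440, 431 and 446 CPM in MΔGΔT libraries, 342, 336, 333, 345 and 317 in MGT libraries, and 420, 416, 381, 382 and 431 in MEF libraries. MGT libraries were all below the rest, and the lowest MΔGΔT library and the highest MEF library differed by less than the rounding of these values. Klf6 thus fell in MGT against MEF (-0.28 ± 0.0364, adjusted p = 1.5e-08) and was higher in MΔGΔT than in MGT (0.41 ± 0.0364, adjusted p = 1.3e-12). In MΔGΔT against MEF its log2 fold change was 0.13 ± 0.0363 (adjusted p = 0.0015), but 0.05 with upper-quartile factors (adjusted p = 0.23), 0.04 with library totals (adjusted p = 0.39) and -0.10 with RPKM-implied totals (adjusted p = 0.041).

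Klf7, known for its part in axon growth, was lowest in MΔGΔT. It spans chr1:64029447-64122282 on the minus strand and is overlapped by Gm13748 and Gm26649 on the other strand. Klf7 had 24.9, 23.9, 21.8, 22.1 and 27.2 CPM in MΔGΔT libraries, 45.9, 47, 43.5, 40.7 and 42.6 in MGT libraries, and 45.5, 36.8, 34.4, 36.8 and 41.6 in MEF libraries. All MΔGΔT libraries were the lowest, and the MGT and MEF libraries overlapped in CPM. In the deposited RPKM they did not, with 6.14 to 6.95 in MGT and 5.19 to 5.87 in MEF. The ratio of count to RPKM of Klf7 did not follow the RPKM-implied totals. Its RPKM thus differ from CPM by more than scaling, and no separation of MGT and MEF is read from them. The log2 fold change of Klf7 was -0.71 ± 0.0727 in MΔGΔT against MEF (adjusted p = 3.8e-11) and -0.87 ± 0.0702 in MΔGΔT against MGT (adjusted p = 1e-13). In MGT against MEF it was 0.17 ± 0.0654 (adjusted p = 0.025), and this call was lost with upper-quartile factors (0.14, adjusted p = 0.059) and without MEF replicate 2, 3 or 4 or MGT replicate 1 or 2 (0.12 to 0.15, adjusted p = 0.062 to 0.11).

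Klf3, the CtBP-recruiting repressor that restrains fat cell formation and shapes erythroid gene expression, moved little. It spans chr5:64803388-64832901 on the plus strand, where the annotated gene Gm20033 overlaps it on the other strand, and whether counting used strand is not given in the sources used here. Klf3 had 146, 148, 145, 153 and 144 CPM in MΔGΔT libraries, 156, 157, 158, 167 and 157 in MGT libraries, and 179, 170, 171, 168 and 173 in MEF libraries. The 3 groups did not overlap although their means lay within a narrow band of 147 CPM in MΔGΔT and 159 in MGT, against 172 in MEF. The log2 fold change was -0.23 ± 0.0361 in MΔGΔT against MEF (adjusted p = 5.8e-07) and -0.11 ± 0.0359 in MΔGΔT against MGT (adjusted p = 0.0081). In MGT against MEF it was -0.12 ± 0.0357 (adjusted p = 0.0046), a call lost with library totals (-0.04, adjusted p = 0.34) and with RPKM-implied totals (-0.10, adjusted p = 0.068).

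Of the members that can recruit Sin3, Klf13 rose in both transduced groups. KLF13 is known as a partner of GATA4 on heart genes. It spans chr7:63886351-63938915 on the minus strand. Klf13 had 224, 230, 231, 230 and 224 CPM in MΔGΔT libraries, 206, 199, 202, 198 and 207 in MGT libraries, and 148, 137, 144, 145 and 141 in MEF libraries. The transduced libraries were all above the MEF libraries, with a narrow spread inside each group. The log2 fold change was 0.67 ± 0.0351 in MΔGΔT against MEF (adjusted p = 5.2e-20) and 0.50 ± 0.035 in MGT against MEF (adjusted p = 8.6e-16). In MΔGΔT against MGT it was 0.17 ± 0.0341 (adjusted p = 4.2e-05), but -0.0021 with library totals (adjusted p = 0.96) and -0.09 with RPKM-implied totals (adjusted p = 0.11), so the direction between the transduced groups rests on the scaling. The Klf13 window is shown as that of a member that rose (chr7:63938866-63939165, minus strand, written 5′ to 3′ on that strand), with the 3 GC boxes GGGCGG on either strand in capitals.
Klf13 promoter: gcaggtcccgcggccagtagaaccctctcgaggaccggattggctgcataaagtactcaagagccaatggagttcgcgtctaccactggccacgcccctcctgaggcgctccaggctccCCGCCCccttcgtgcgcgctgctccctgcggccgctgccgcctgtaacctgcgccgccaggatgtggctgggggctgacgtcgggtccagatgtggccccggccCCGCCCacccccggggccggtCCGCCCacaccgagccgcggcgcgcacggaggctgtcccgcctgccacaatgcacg
It holds 1 CACCC, 22 bases before the start, and no match to the MEF2 consensus.

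Klf9, a gene induced by glucocorticoids and thyroid hormone, spans chr19:23141226-23168134 on the plus strand. Klf9 had 128, 128, 113, 124 and 124 CPM in MΔGΔT libraries, 107, 104, 111, 99.8 and 104 in MGT libraries, and 119, 116, 101, 110 and 117 in MEF libraries. MΔGΔT libraries lay above MGT libraries, and the MEF libraries overlapped both. The log2 fold change in MΔGΔT against MGT was 0.23 ± 0.0442 (adjusted p = 2.5e-05), but 0.06 with library totals (adjusted p = 0.27) and -0.03 with RPKM-implied totals (adjusted p = 0.65). In MΔGΔT against MEF it was 0.13 ± 0.0445 (adjusted p = 0.011), but 0.04 with upper-quartile factors (adjusted p = 0.4), 0.03 with library totals (adjusted p = 0.56), -0.11 with RPKM-implied totals (adjusted p = 0.044), and 0.09 once MEF replicate 3 was left out (adjusted p = 0.068). In MGT against MEF it was -0.10 ± 0.0446 (adjusted p = 0.043), which was not called with DESeq2, relative log expression factors, library totals, RPKM-implied totals, no filter or the replicate block (-0.10 to -0.03, adjusted p = 0.051 to 0.63), or without MEF replicate 1, 2 or 5 or MGT replicate 1, 2, 4 or 5 (-0.11 to -0.08, adjusted p = 0.051 to 0.13).

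Klf10, an early gene of the TGF-beta response, spans chr15:38291463-38300706 on the minus strand. Klf10 had 22.9, 23.5, 21.9, 20.5 and 19.3 CPM in MΔGΔT libraries, 27.3, 27.8, 24.6, 28.5 and 26.6 in MGT libraries, and 27.6, 24.7, 26.9, 24.5 and 23.9 in MEF libraries. MΔGΔT libraries were the lowest, and MGT and MEF libraries overlapped. Klf10 had a log2 fold change of -0.24 ± 0.0701 in MΔGΔT against MEF (adjusted p = 0.0026) and -0.32 ± 0.0679 in MΔGΔT against MGT (adjusted p = 0.00012). In MGT against MEF it was 0.08 ± 0.0663 (adjusted p = 0.32), and 0.15 with library totals (adjusted p = 0.039).

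Klf15, a heart and muscle gene that restrains hypertrophy and controls the potassium channel subunit gene Kcnip2, had the fewest counts of the members, with 44 to 59 counts per MΔGΔT library, 77 to 106 per MGT library and 71 to 88 per MEF library. It spans chr6:90462576-90475238 on the plus strand. Klf15 had 5.11, 5.65, 6.08, 4.45 and 4.9 CPM in MΔGΔT libraries, 6.53, 8.29, 8.05, 9.02 and 9.59 in MGT libraries, and 7.38, 8.44, 8.4, 8.58 and 9.82 in MEF libraries. MΔGΔT libraries lay below all others, and the MGT and MEF libraries overlapped. The log2 fold change was -0.70 ± 0.125 in MΔGΔT against MEF (adjusted p = 5.5e-06), -0.66 ± 0.123 in MΔGΔT against MGT (adjusted p = 1.6e-05) and -0.04 ± 0.112 in MGT against MEF (adjusted p = 0.77).

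Libraries of the compared groups did not overlap for 9 of 10 members in MΔGΔT against MEF, where this held for 58.5% of tested features. The same was true of 6 members in MGT against MEF, where 45.8% of features did not overlap, and of all 10 in MΔGΔT against MGT, where the share was 45.3%. Scaling turned some small differences and left those of Klf2, Klf4 and Klf5 with their direction. With library totals the median log2 fold change of all genes was -0.10 in MΔGΔT against MEF, 0.08 in MGT against MEF and -0.16 in MΔGΔT against MGT, and with RPKM-implied totals it was -0.24, 0.02 and -0.25, against -0.01, 0.00 and 0.01 with TMM. Of all called features in MΔGΔT against MGT, 52.3% were higher with TMM, 28.2% with library totals and 20.4% with RPKM-implied totals. In MΔGΔT against MEF the same shares were 50%, 40.6% and 28.9%, and in MGT against MEF 50.5%, 61.3% and 53.1%.

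**Figure D3:**
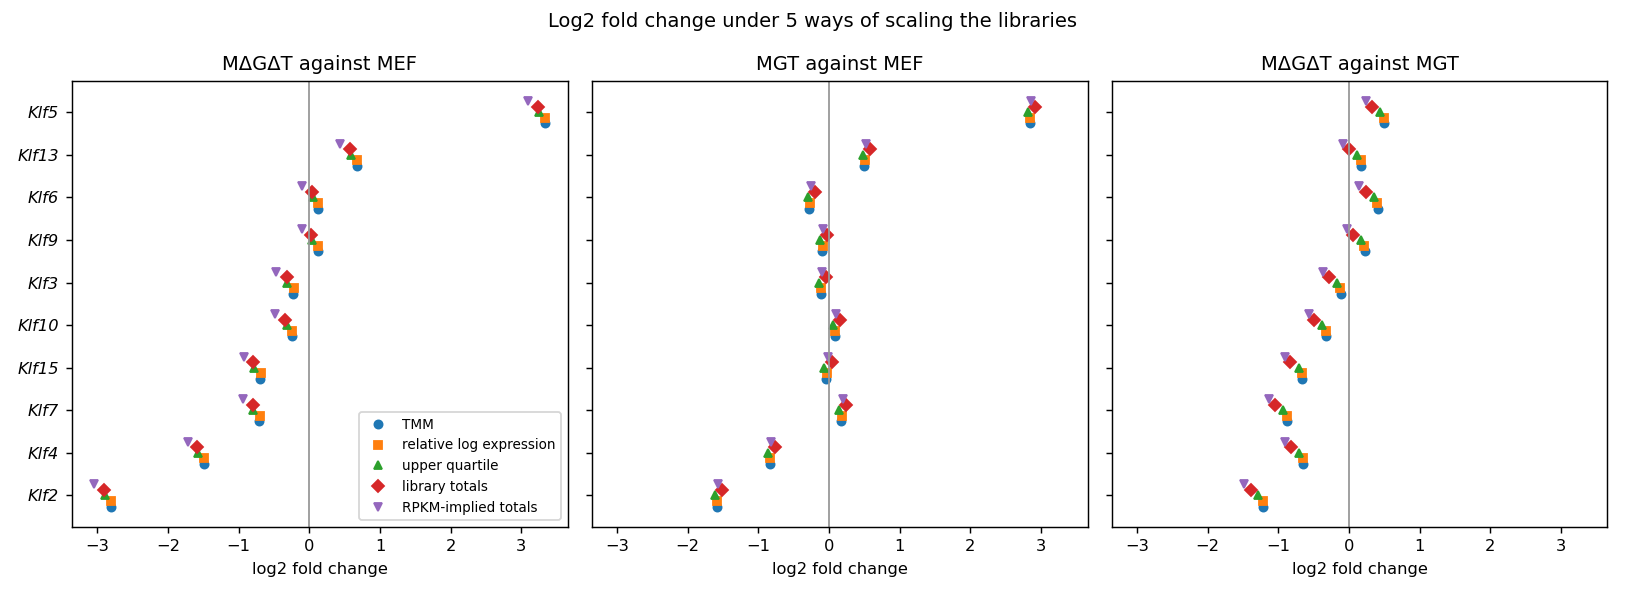
Log2 fold change (x axis) of the 10 Klf genes in each comparison under 5 ways of scaling the libraries, with marker shape for the scaling. Klf2, Klf3, Klf4, Klf5, Klf7, Klf10 and Klf15 keep their sign in both comparisons of MΔGΔT, whereas Klf6 and Klf9 against MEF, and Klf9 and Klf13 against MGT, cross 0 under at least 1 scaling.

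Compared per gene length, the make-up of the family changed. On the scale of the deposited RPKM (reads per kilobase and mega-read), which carries the authors' own library totals, Klf6 had the highest level in every group, at 57.7 ± 2.77 in MΔGΔT and 51.9 ± 2.42 in MGT, against 62 ± 1.21 in MEF. Next in MEF came Klf4 at 52.8 ± 3.73 RPKM and Klf2 at 43.9 ± 2.26, then Klf9 at 22.3, Klf13 at 13.8, Klf3 at 10.1, Klf7 at 5.58, Klf10 at 5.41, Klf5 at 3.27 ± 0.532 and Klf15 at 1.97. Klf7 and Klf10 overlapped there, and all other neighbours in the order were apart in every library. In MGT the order of RPKM levels was Klf6, Klf4 at 29.9, Klf5 at 23.7, Klf9 at 21.1, Klf13 at 19.8, Klf2 at 14.8, Klf3 at 9.4, Klf7 at 6.44, Klf10 at 5.79 and Klf15 at 1.94. Klf5 and Klf9, Klf9 and Klf13, and Klf7 and Klf10 overlapped in MGT. In MΔGΔT the order was Klf6, Klf5 at 28 ± 1.53, Klf9 at 20.7, Klf13 at 18.7, Klf4 at 16 ± 1.1, Klf3 at 7.3, Klf2 at 5.34 ± 0.769, Klf10 at 3.88, Klf7 at 2.88 and Klf15 at 1.03, with an overlap of Klf9 and Klf13. Klf5 thus had a higher RPKM level than Klf2 in MΔGΔT and in MGT, and a lower one in MEF, with no overlap of libraries in any group.

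**Figure D4:**
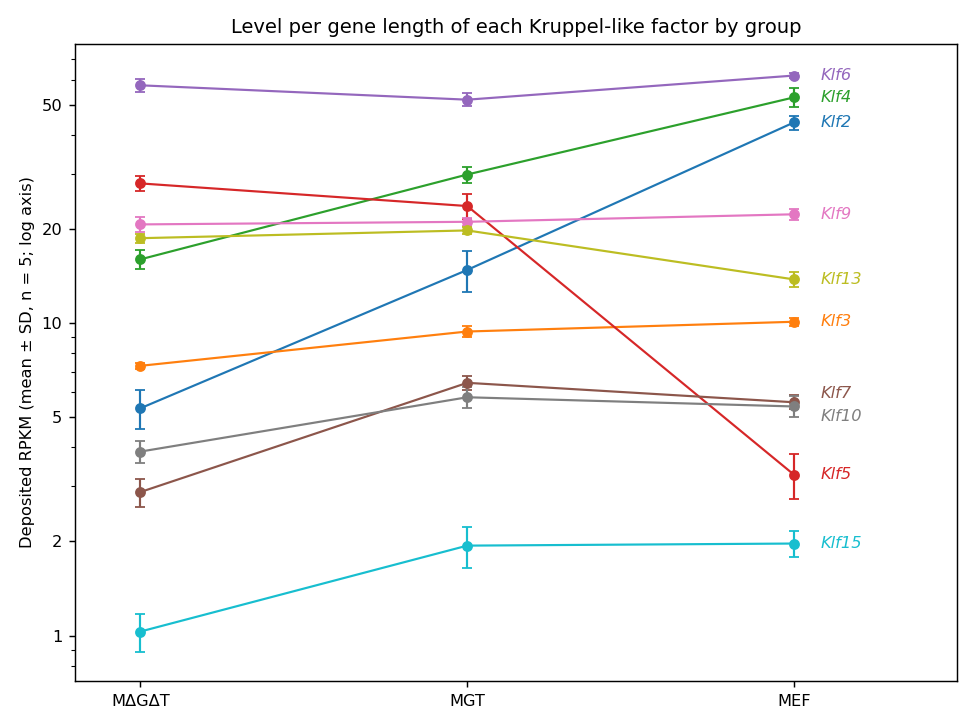
Deposited RPKM (y axis, log scale; mean ± SD, n = 5) of the 10 Klf genes in MΔGΔT, MGT and MEF; lines join the means of a gene and show no time course. Klf5 and Klf2 cross, with Klf5 at 28, 23.7 and 3.27 and Klf2 at 5.34, 14.8 and 43.9 RPKM.

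Summed over the 10 members, the RPKM level was 162 ± 6.63 in MΔGΔT and 185 ± 7.7 in MGT, against 221 ± 7.25 in MEF. In TMM-adjusted CPM, which are not per length, the same sum was 1190 ± 22.3 in MΔGΔT and 1120 ± 25.8 in MGT, against 1290 ± 64.2 in MEF, so MΔGΔT and MGT stood in the opposite order there. Klf2 and Klf4 together had 21.3 ± 1.68 RPKM in MΔGΔT and 44.7 ± 3.89 in MGT, against 96.7 ± 5.37 in MEF. As a share of the members' summed RPKM, Klf2 made up 3.3% in MΔGΔT and 7.99% in MGT, against 19.8% in MEF, and Klf4 9.88% in MΔGΔT and 16.2% in MGT, against 23.9% in MEF. Klf5 made up 17.4% in MΔGΔT and 12.8% in MGT, against 1.48% in MEF, and Klf13 11.6% in MΔGΔT and 10.7% in MGT, against 6.27% in MEF. Klf6 made up 35.7% in MΔGΔT, and 28.1% in both MGT and MEF. Shares within a library do not depend on its scaling.

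Other genes of the family and its relatives were read from a list of 7 further Klf genes and 9 Sp genes. Klf8, another CtBP-recruiting repressor, known for promoting the loss of epithelial traits, had 16, 19.4, 15.7, 14.7 and 18.5 CPM in MΔGΔT libraries, 6.02, 4.15, 5.31, 4.59 and 7.14 in MGT libraries, and 3.84, 2.3, 3.02, 2.3 and 2.68 in MEF libraries. The groups did not overlap, and its log2 fold change was 2.56 ± 0.14 in MΔGΔT against MEF (adjusted p = 2.4e-19), 0.93 ± 0.169 in MGT against MEF (adjusted p = 9e-06) and 1.63 ± 0.118 in MΔGΔT against MGT (adjusted p = 4e-15). Klf14, an imprinted gene linked to fat tissue, had 11 counts over the 5 MΔGΔT libraries and 50 over the MGT libraries, against 98 over the MEF libraries, with log2 fold changes of -3.13 ± 0.374 in MΔGΔT against MEF (adjusted p = 1.4e-09) and -1.21 ± 0.268 in MGT against MEF (adjusted p = 0.00016). Klf11, a TGF-beta-induced relative of Klf10, averaged 17.5 ± 2.44 CPM in MΔGΔT and 22.2 ± 1.43 in MGT, against 19 ± 1.18 in MEF. It was higher in MGT than in MEF (0.22, adjusted p = 0.015; without MGT replicate 1, 0.18, adjusted p = 0.058) and lower in MΔGΔT than in MGT (-0.34, adjusted p = 0.00031). In MΔGΔT against MEF the value of Klf11 was -0.12 (adjusted p = 0.18), and it was called lower at -0.21 with upper-quartile factors, at -0.22 with library totals and at -0.36 with RPKM-implied totals (adjusted p = 0.025, 0.018 and 0.00057 in that order). Klf12 had log2 fold changes of -0.21 (adjusted p = 0.14) in MΔGΔT against MEF, 0.11 (adjusted p = 0.46) in MGT against MEF and -0.31 (adjusted p = 0.026) in MΔGΔT against MGT. The same 3 scalings called Klf12 lower in MΔGΔT against MEF (-0.29, -0.30 and -0.44, adjusted p = 0.038, 0.031 and 0.0017), so that 3 of the 5 further Klf genes in the table were lower there, against 1 with TMM. Without MEF replicate 1 its value in MGT against MEF was 0.28 (adjusted p = 0.026), and its call in MΔGΔT against MGT was lost without MGT replicate 1 or MΔGΔT replicate 3 or 5 (-0.28 to -0.24, adjusted p = 0.064 to 0.11). Klf16 was not called with TMM in any comparison, with means of 25.5 CPM in MΔGΔT and 24.2 in MGT, against 23.8 in MEF, but was lower in MΔGΔT than in MGT with RPKM-implied totals (-0.18, adjusted p = 0.028). Klf1 and Klf17 were not analysed here. Of the 5 Sp genes tested, which bind the same GC boxes, 3 were higher and 1 lower in MΔGΔT against MEF (0 and 1 with RPKM-implied totals), 3 higher and 0 lower in MGT against MEF, and 0 higher and 3 lower in MΔGΔT against MGT. The medians of the 5 were 0.22, 0.28 and -0.18, and Sp3 had 158 CPM in MΔGΔT and 206 in MGT, against 136 in MEF.

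**Figure D5:**
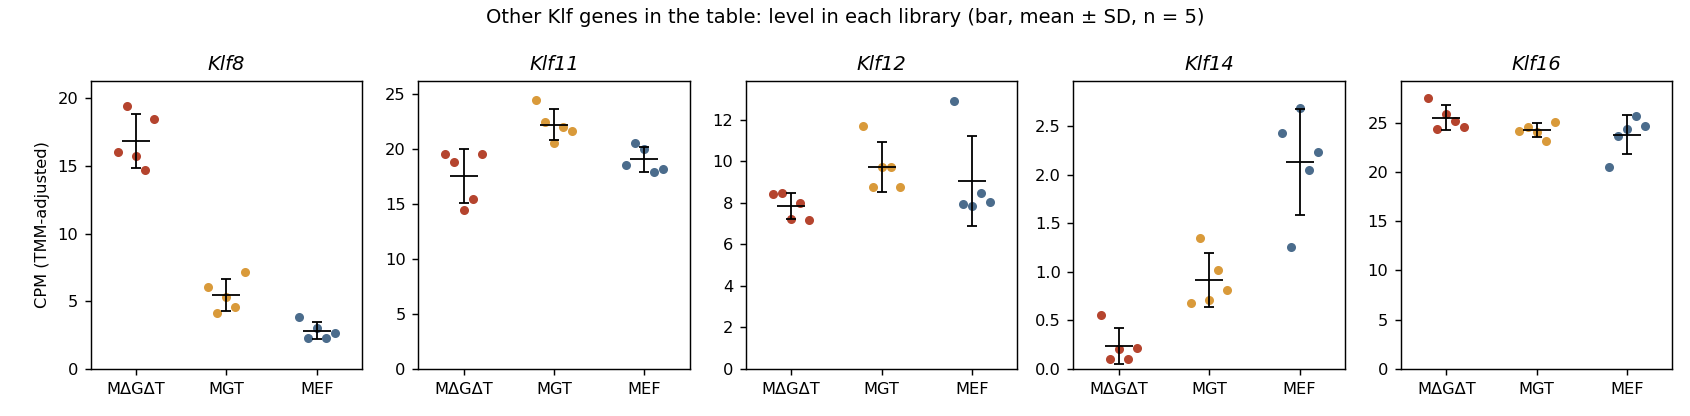
TMM-adjusted CPM (y axis, from 0) in each library of the 5 further Klf genes in the table, by group (MΔGΔT, MGT, MEF); points are libraries, and bars are the mean ± SD of 5. Klf8 averages 16.8 and 5.44 CPM in MΔGΔT and MGT, against 2.83 in MEF, and Klf14 stays under 3 CPM in all libraries.

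Genes that act with or upstream of the family moved in both directions. Of 13 corepressor and coactivator genes, 5 were higher and 6 lower in MΔGΔT against MEF (2 and 8 with RPKM-implied totals), 6 higher and 3 lower in MGT against MEF (5 and 5 with upper-quartile factors), and 1 higher and 4 lower in MΔGΔT against MGT (0 and 13 with RPKM-implied totals). Their median log2 fold changes were -0.04, 0.02 and -0.06 in the same order, against -0.01, 0.00 and 0.01 over all tested features. The acetyltransferase gene Kat2b averaged 95.9 CPM in MΔGΔT and 94.7 in MGT, against 46.1 in MEF. Of 9 tested genes for turnover of KLF proteins, 5 were higher and 1 lower in MΔGΔT against MEF (3 and 3 with RPKM-implied totals), 5 higher and 1 lower in MGT against MEF, and 5 higher and 0 lower in MΔGΔT against MGT (1 and 3 with RPKM-implied totals). The medians of the 9 were 0.25, 0.18 and 0.20. Wwp1, a ubiquitin ligase known to act on KLF2 and KLF5, averaged 69.2 ± 4.59 CPM in MΔGΔT and 55 ± 2.79 in MGT, against 118 ± 6.71 in MEF, and Fbxo32, a muscle ubiquitin ligase reported to act on KLF4, averaged 65.8 ± 2.57 in MΔGΔT and 50.6 ± 1.19 in MGT, against 23.2 ± 1.98 in MEF. The route from the kinase ERK5 through MEF2 to Klf2 and Klf4, known from endothelium, was read from 11 genes that include the delivered Mef2c. Of these, 5 were higher and 3 lower in MΔGΔT against MEF (5 and 5 with library totals), 5 higher and 2 lower in MGT against MEF, and 5 higher and 2 lower in MΔGΔT against MGT (2 and 7 with RPKM-implied totals). The medians of the 11 were 0.12, -0.02 and -0.04, so the sign of the median and the larger count differed in the last 2 comparisons. Mapk7, which encodes ERK5, averaged 37.1 ± 1.56 CPM in MΔGΔT and 38.3 ± 2.75 in MGT, against 54.5 ± 3.31 in MEF (log2 fold changes -0.56 and -0.51 against MEF), and Hdac9, a repressor of MEF2, averaged 29.1 ± 3.12 in MΔGΔT and 16.1 ± 2.28 in MGT, against 11.3 ± 1.05 in MEF.

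Known targets of the family were read from lists chosen by function. The lists were not split into genes that a KLF activates and genes that it represses. Their counts and medians thus give no direction of KLF action. Of 11 vascular genes that KLF2 and KLF4 control in endothelium, 1 was higher and 9 lower in MΔGΔT against MEF (median log2 fold change -0.95), 1 higher and 9 lower in MGT against MEF (median -0.67), and 2 higher and 6 lower in MΔGΔT against MGT (median -0.24). Tek, the angiopoietin receptor gene, averaged 0.4 ± 0.12 CPM in MΔGΔT and 2.22 ± 0.469 in MGT, against 10.4 ± 0.43 in MEF, and Aqp1, a water channel gene, averaged 13.5 ± 3.2 in MΔGΔT and 23 ± 3.77 in MGT, against 50 ± 3.72 in MEF. These genes are also markers of endothelium in part, Tek being on both lists.

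Of 13 smooth muscle genes and regulators on which KLF4 and KLF5 are known to act, 10 were higher and 2 lower in MΔGΔT against MEF (median 1.75), 9 higher and 3 lower in MGT against MEF (median 0.42), and 10 higher and 1 lower in MΔGΔT against MGT (median 1.40). Myocd, the coactivator of SRF in heart and smooth muscle, averaged 75.4 ± 1.27 CPM in MΔGΔT and 9.73 ± 1.02 in MGT, against 1.46 ± 0.35 in MEF. Smooth muscle actin, Acta2, averaged 3790 ± 112 CPM in MΔGΔT, against 779 ± 48.7 in MEF, a log2 fold change of 2.28 (adjusted p = 6.9e-32). The smooth muscle myosin gene Myh11 averaged 130 ± 9.22 CPM in MΔGΔT and 36.7 ± 4.55 in MGT, against 13.7 ± 0.993 in MEF. Heart muscle markers moved with this list, at a summed 12300 to 13800 CPM in MΔGΔT and 1680 to 1880 in MGT, against 15.4 to 17.5 in MEF, where Myh7 was at 0 in all 5 libraries. The shared part of the 2 lists' changes was not tested.

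Of 15 genes linked to KLF15 in muscle and heart, 9 were higher and 4 lower in MΔGΔT against MEF (median 0.35; 7 and 5 with RPKM-implied totals), 7 higher and 4 lower in MGT against MEF (median 0.29), and 8 higher and 1 lower in MΔGΔT against MGT (median 0.12; 7 and 6 with RPKM-implied totals). Among them Slc2a4, the insulin-responsive glucose transporter gene, averaged 33.3 ± 1.36 CPM in MΔGΔT and 9.8 ± 1.21 in MGT, against 3.09 ± 0.296 in MEF, while Klf15 itself was lower in MΔGΔT. The KLF15 list, too, was not split by activation and repression. Of 14 glucocorticoid-response genes, a response that also induces Klf9, 4 were higher and 9 lower in MΔGΔT against MEF (median -0.51), 5 higher and 7 lower in MGT against MEF (median -0.12; 6 and 6 with library totals), and 1 higher and 9 lower in MΔGΔT against MGT (median -0.22). Tsc22d3, a direct glucocorticoid target, averaged 18.9 ± 2.58 CPM in MΔGΔT and 25.1 ± 1.55 in MGT, against 49.1 ± 2.93 in MEF. Pdk4, a kinase that limits glucose oxidation, averaged 99 ± 6.05 CPM in MΔGΔT and 77.7 ± 6.06 in MGT, against 10 ± 1.66 in MEF.

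Of 10 adipogenic regulators and targets of the family, 1 was higher and 9 lower in MΔGΔT against MEF (median -1.73), 2 higher and 8 lower in MGT against MEF (median -1.25), and 0 higher and 8 lower in MΔGΔT against MGT (median -0.42). Lpl, lipoprotein lipase, averaged 63.5 ± 5.92 CPM in MΔGΔT and 70.5 ± 13.9 in MGT, against 1210 ± 44.5 in MEF. The 4 adipocyte markers in the count table, all of which fell in both transduced groups, summed to 75.4 to 94 CPM in MΔGΔT and 78.4 to 114 in MGT, against 1400 to 1510 in MEF. All 4, Lpl among them, are also on the list of adipogenic regulators and targets, so they repeat its values. Adipoq and Plin1 were not analysed here. Of 11 cell cycle genes under KLF4 and KLF5, 4 were higher and 7 lower in MΔGΔT against MEF (median -0.40), 6 higher and 3 lower in MGT against MEF (median 0.18), and 3 higher and 7 lower in MΔGΔT against MGT (median -0.58). Cdkn1a, the p21 inhibitor gene that KLF4 activates, averaged 553 ± 19.8 CPM in MΔGΔT and 325 ± 18.4 in MGT, against 149 ± 4.08 in MEF, and Cdkn1c, another inhibitor gene, averaged 24.5 ± 2.99 in MΔGΔT and 38.4 ± 2.28 in MGT, against 317 ± 28.1 in MEF.

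For each member the tested genes with the most similar pair of log2 fold changes against MEF (MΔGΔT and MGT) were found by Euclidean distance over the 3 group means. Nearest to Klf5 were Gucy1b3, a subunit of the nitric oxide receptor, with 3.31 in MΔGΔT and 2.80 in MGT (distance 0.037), and Srpk3, a muscle kinase gene, with 3.43 in MΔGΔT and 2.89 in MGT (distance 0.11). Nearest to Klf2 were Nkain4 (-2.82 in MΔGΔT and -1.66 in MGT) and the collagen gene Col3a1 (-2.75 in MΔGΔT and -1.65 in MGT), at distances of 0.073 and 0.085. Spry1, an inhibitor of growth factor signalling, and Gpr153 were nearest to Klf4, at 0.022 and 0.024. The remaining members had neighbours within a distance of 0.02, which were Uxs1 and Eid2 for Klf3, Faap20 and Slc35f5 for Klf6, BC055324 and Tst for Klf7, Elp5 and Arfrp1 for Klf9, Ift46 and Polr2e for Klf10, Clic1 and Usp53 for Klf13, and Etaa1 and Pold1 for Klf15.

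RefSeq promoter windows were given for 8 members, all but Klf5 and Klf10, and their GC content was 58.3% to 76.7%, against a median of 52.7% over 32851 windows. The GC box GGGCGG, to which Sp and KLF proteins bind, was found on either strand in 7 of 8 members, all but Klf9, and in 35.7% of all windows. CACCC was found in 6 of 8 members, all but Klf4 and Klf6, and in 57.5% of all windows. No member window held the SRF CArG box, the GATA-type motif AGATAA or the T-box motif AGGTGT, which were found in 1.63%, 11.2% and 13.7% of all windows. A match describes these letters in this window and nothing about binding.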

How the data were processed

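Per the labels' protocols, directional libraries were made from total RNA after removal of ribosomal RNA. The submitters' processing notes name the build mm10. Which aligner, counter and strand setting were used is not given in the sources used here. The deposited table gave 4 values per feature and library. Its deposited raw expression values were whole-number counts, which were tested. The deposited normalized signal was the count times 1 constant per library and the deposited transformed value was the log2 of that signal plus 1, and neither was used. The deposited RPKM values were used to compare levels between genes and, through their ratio to counts, for the RPKM-implied library totals of genes with at least 200 counts. Set against the first library, this ratio lay within 1.2% of its median for at least 83% of the genes used. For the rest, such as Klf7, RPKM and counts differ by more than a library total.

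The counts were tested with edgeR 4.0.16 under R 4.3.3 (filterByExpr by group, TMM, robust quasi-likelihood fit to all 15 libraries with group as the only term, 12 residual degrees of freedom, Benjamini-Hochberg over 13328 features, threshold 0.05). The SE was taken from the log2 fold change and its F statistic. Levels of the 8.21 to 11.1 mega-count libraries carry counting error, and of the Klf genes Klf14, Klf8 and Klf15 had the fewest counts. The biological coefficient of variation was 4.86%. The scripts were tested on simulated data. Library pairs of a group differed by more than sampling noise (chi-square per degree of freedom 1.61 to 7.43), so all 15 were kept. There were 21 features with a date as symbol and 0.26% of counts, which stayed in library sizes and tests. Alternatives were other scalings, other filters, DESeq2 1.42.0, 2 groups only, a replicate block and leaving out each library. Gene positions came from GENCODE M21 and promoter windows from RefSeq (GRCm38.p6).

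The members, lists and named genes (of each list, the 4 or fewer called genes of the largest absolute change among those with a mean log2 CPM above 1, of which some are printed) were chosen with earlier results of these data known. The levels of Vim, Cdh5, Cdh1 and Myh7 were printed outside this rule.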

Additional observations from a re-analysis of the deposited data

Results flagged for a closer look

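Within groups of 5 libraries, 4 of the 30 combinations of member and group had a library farther from the rest than Dixon's 95% critical value of 0.71 allows, where chance gives about 1 in 20. MΔGΔT replicate 1 had 22.9 CPM of Klf2, the highest of its group, where the others lay between 16.1 and 17.9. MGT replicate 1 had 153 CPM of Klf4, where the others lay between 131 and 137. MGT replicate 4 had 167 CPM of Klf3, where the others lay between 156 and 158. MΔGΔT replicate 3 had 113 CPM of Klf9, where the others lay between 124 and 128. Leaving out any 1 library left Klf2 at -2.90 to -2.76 in MΔGΔT against MEF and Klf4 at -0.90 to -0.81 in MGT against MEF, with both called each time.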

How the results depend on the processing

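Of 570 recomputed member values, 534 kept their direction and their side of the threshold, and every value of Klf2, Klf4 and Klf5 did. The 8 reversals were Klf13 (-0.0021 with library totals, -0.09 with RPKM-implied totals) and Klf9 (-0.03 with RPKM-implied totals) in MΔGΔT against MGT, Klf6 (-0.10) and Klf9 (-0.11) in MΔGΔT against MEF with RPKM-implied totals, and Klf15 in MGT against MEF, not called in any of them (0.04 with library totals, 0.01 without MEF replicate 5, 0.04 without MGT replicate 1). Klf16, also not called with TMM, ranged from -0.02 (without MEF replicate 1) to 0.05 in MGT against MEF with 1 library left out, and turned to -0.13 in MΔGΔT against MEF with RPKM-implied totals, and in MΔGΔT against MGT to -0.10 with library totals and -0.18 with RPKM-implied totals, where it was called (adjusted p = 0.028). Klf11 and Klf12 were called lower in MΔGΔT against MEF under 3 scalings and not with TMM. Lower members in MGT against MEF were 3 with library totals and 3 with RPKM-implied totals, where 24.6% and 27.3% of tested features were lower. Higher members in MΔGΔT against MEF were 2 with upper-quartile factors, library totals or RPKM-implied totals, where 30.5%, 29.8% and 21.9% of features were higher. In MΔGΔT against MGT they were 2 with library totals or RPKM-implied totals, where 18.3% and 14% were higher. Over all genes, 2926 were higher in MΔGΔT against MEF with RPKM-implied totals. In MΔGΔT against MGT, 2436 were higher and 6200 lower with library totals, and 1871 higher and 7289 lower with RPKM-implied totals, against 4056 and 3706 with TMM. The cause was not tested.

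Leaving out 1 library gave 3 to 4 higher and 6 lower members in MΔGΔT against MEF, 2 to 3 and 4 to 5 in MGT against MEF, and 4 and 6 in MΔGΔT against MGT. Over all features, 4657 to 4821 were then higher and 4729 to 4831 lower in MΔGΔT against MEF. The same ranges were 3863 to 4087 and 3912 to 4069 in MGT against MEF, and 3894 to 3993 and 3456 to 3567 in MΔGΔT against MGT. Deviations of libraries with the same replicate number were weakly correlated (-0.092 to 0.067). In both comparisons with MEF, no library was correlated best with the library of its own number. In MΔGΔT against MGT, replicates 1, 2 and 5 were (correlations 0.035, 0.067 and 0.059), and replicates 3 and 4 were not. Correlations this small do not settle whether the replicate numbers pair the transduced libraries. With the replicate block, 4 members in place of 5 were lower in MGT against MEF (Klf9, -0.10, adjusted p = 0.051), the other member counts were equal, and 4794 genes were higher in MΔGΔT against MEF. Over all genes, 4001 were lower in MGT against MEF with the block and 4040 without it. Of the list counts, 56 of 1026 moved by over 1.5 times under a scaling, filter or model, and 22 of 1140 with 1 library left out. Depth limits Klf8, Klf14 and Klf15, and 5 libraries a group from possibly shared cultures limit how far the p-values reach.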

Other observations

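Klf6 and Klf10 belong to broader early responses. Of 18 TGF-beta early-response genes, 8 were higher and 10 lower in MΔGΔT against MEF (median log2 fold change -0.23), 7 higher and 8 lower in MGT against MEF (median -0.03; 8 and 7 with library totals), and 10 higher and 6 lower in MΔGΔT against MGT (median 0.29; 8 and 8 with RPKM-implied totals). Ctgf, a matrix gene induced by TGF-beta, averaged 1190 ± 42.3 CPM in MΔGΔT and 390 ± 20.3 in MGT, against 170 ± 6.04 in MEF, and Tgfb2 averaged 472 ± 18.3 in MΔGΔT and 187 ± 7.13 in MGT, against 78 ± 5.98 in MEF. Id2, an inhibitor of helix-loop-helix factors, averaged 10.6 ± 0.655 CPM in MΔGΔT and 18.1 ± 2.92 in MGT, against 71.2 ± 4.36 in MEF. Klf10 was lower in MΔGΔT than in both other groups.

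Of 22 immediate early genes, 9 were higher and 13 lower in MΔGΔT against MEF (median -0.46), 6 higher and 14 lower in MGT against MEF (median -0.22; 6 and 9 with library totals), and 7 higher and 7 lower in MΔGΔT against MGT (median -0.03; 5 and 12 with RPKM-implied totals, 7 and 10 with library totals). Jun averaged 123 ± 10.5 CPM in MΔGΔT and 155 ± 18.8 in MGT, against 395 ± 25 in MEF, while Btg2, an antiproliferative gene, averaged 549 ± 22.2 in MΔGΔT and 433 ± 17.7 in MGT, against 182 ± 15.7 in MEF.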
